A study of Mus musculus with 12 samples.

Results

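The genes described here are 44 genes of bone morphogenetic protein (BMP) and transforming growth factor beta (TGF-beta) signaling, chosen by symbol. Their list holds 16 ligands, 9 receptors, 8 Smads, 4 Id genes and 7 antagonists. It was chosen with earlier results of these data known. Whether this raised the share of its genes called was not tested. All 44 were matched among the 37991 Ensembl gene identifiers counted, and 43 were among the 15327 genes that passed the filter on low counts. Gdf5, a ligand of joints and limbs, did not pass, with at most 8 counts in any sample. RNA-seq was performed on primary mouse embryonic fibroblasts (MEFs) of the FVB strain, isolated from embryos of 13.5 days and grown to passage 3. Cells were wild type or homozygous for the E2f1 3KR allele, a knock-in in which the 3 lysines of E2F1 that become acetylated are replaced by arginine. Each genotype was either left untreated or given 250 ng/ml neocarzinostatin (NCS), a radiomimetic drug that breaks both strands of DNA, for 3 h, with 3 samples in each of the 4 groups.

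BMPs, activins and TGF-betas are secreted dimers that bring type I and type II receptor kinases together on the cell surface. The receptors phosphorylate Smads, Smad1, Smad5 and Smad9 downstream of BMPs and Smad2 and Smad3 downstream of activins and TGF-betas, which enter the nucleus with Smad4. Id genes, which encode helix-loop-helix proteins that block differentiation factors, are direct targets of BMP signaling, and secreted antagonists such as noggin, gremlin and follistatin hold ligands away from their receptors. In fibroblasts the pathway is known for its control of matrix genes and of skeletal fates.

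The 12 libraries held from 33203757 to 45279321 counted reads. The E2f1 transcript was measured at 1042 to 1296 normalized counts in wild-type samples and 1111 to 1259 in 3KR samples; counts per gene do not tell the knock-in allele from the wild-type one. Wild-type replicate 3 stood apart from the other wild-type replicates in both treatments, as its pairs had a mean chi-square of 7.57 to 9.37 per gene against 2.03 to 2.34 in all other pairs of replicates. Xist, the RNA of the inactive X chromosome, had 32.3 to 62.5 normalized counts in wild-type samples and 30590.1 to 35635 in 3KR samples, and the Y-linked Ddx3y had 5370.3 to 5822 and 7.0 to 16.2, so that sex and genotype cannot be told apart. All 10 fibroblast markers were expressed. Their untreated sums were 57901 to 59244 CPM, counts scaled to library size, in wild type and 62737 to 64207 in 3KR. Of these markers 8 were called higher and 2 lower in 3KR, against 22.1% and 23.6% of all tested genes. In untreated cells the 15 macrophage markers summed to 135 to 160 CPM in wild type and 267 to 269 in 3KR, with 13 called higher. The 10 Schwann cell and neural crest markers summed to 238 to 241 and 52.0 to 53.6, with 7 called lower. The 6 chondrocyte markers summed to 668 to 678 and 431 to 447, and of the 5 tested 4 were called higher and 1 lower. The 7 skeletal muscle markers summed to 121 to 125 and 41.5 to 44.3, and of the 3 tested 2 were lower. Endothelial and epithelial markers summed to at most 6.59 and 3.32 CPM, with Tie1, Cldn5 and Krt5 at or below 3 counts in every sample. These markers moved with genotype, and their part in the differences below was not tested. In bulk RNA, fewer cells of a type and less RNA per cell cannot be told apart.

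Levels were compared between genes as RPKM, counts scaled to exon length and library size, with exon lengths from GENCODE M21. The annotation release used for counting was not given in the sources used here. Among the 44 genes, Id3 had the highest level in untreated wild-type MEFs, at 301 ± 12.5 RPKM (SD, n = 3). It was followed by the ligand Tgfb3 at 99.1 ± 3.6, by Id1 at 89.4 ± 0.887, by the BMP antagonist Grem1 at 74.3 ± 2.19 and by Inhba, the chain of activin A, at 69.2 ± 3.7. Classical BMP ligands were much lower than these in level, with 13.1 ± 0.675 RPKM for Bmp4, 1.05 ± 0.0954 for Bmp6, 0.51 ± 0.00151 for Bmp2 and 0.106 ± 0.0347 for Bmp7. Of the receptors, Bmpr1a was the highest at 25.5 ± 0.733 RPKM and Acvr2b the lowest at 0.291 ± 0.0816. Of the Smads, the common partner Smad4 was the highest at 31.5 ± 1.1 and Smad9 the lowest at 3.1 ± 0.223. At the low end, Bmp3 was measured at 0.0606 ± 0.0229 RPKM and Gdf5 at 0.0155 ± 0.0269.

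**Figure D1:**
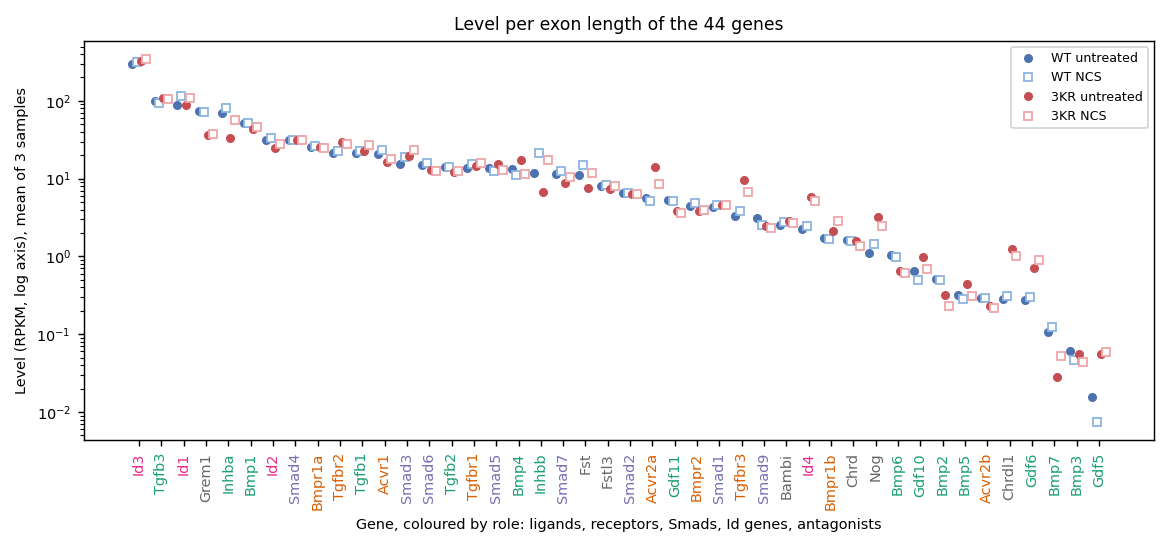
Level of each of the 44 genes in RPKM (vertical log axis), as the mean of 3 samples in each of the 4 groups, ordered by the level in untreated wild-type MEFs and with gene names coloured by role. Levels run from 301 RPKM for Id3 down to 0.016 RPKM for Gdf5 in untreated wild-type MEFs, and the group means of genes such as Acvr2a, Tgfbr3, Id4, Nog, Inhbb, Chrdl1, Gdf6 and Bmp7 lie visibly apart.

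Promoter windows were given for 28 of the 44 genes, 33 windows in all, from RefSeq on the GRCm38.p6 build, and are shown as the 250 bases before the annotated start. The 5 windows below are those of both activin chains, of the activin receptor Acvr2a, of Id4 and of Grem1, chosen after their values were seen, as genes with large differences between genotypes or after NCS that had an entry. Capitals mark GGCGCC, a GC-rich Smad element, and GTCT, the Smad-binding element, or its reverse complement AGAC. The Inhba window lies at chr13:16011601-16011850, plus strand, Inhbb at chr1:119422249-119422498, minus strand, Acvr2a at chr2:48813859-48814108, plus strand, Id4 at chr13:48260866-48261115, plus strand and Grem1 at chr2:113758649-113758898, minus strand.
Inhba: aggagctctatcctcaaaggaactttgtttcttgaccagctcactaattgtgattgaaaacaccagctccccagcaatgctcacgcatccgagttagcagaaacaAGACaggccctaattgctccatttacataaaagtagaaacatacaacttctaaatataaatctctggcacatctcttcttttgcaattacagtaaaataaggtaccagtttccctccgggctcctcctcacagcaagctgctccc
Inhbb: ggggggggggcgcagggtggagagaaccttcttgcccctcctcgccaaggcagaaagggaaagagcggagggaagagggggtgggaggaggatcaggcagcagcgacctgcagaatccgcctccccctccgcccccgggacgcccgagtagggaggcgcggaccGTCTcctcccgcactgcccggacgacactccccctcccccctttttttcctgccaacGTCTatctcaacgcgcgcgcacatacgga
Acvr2a: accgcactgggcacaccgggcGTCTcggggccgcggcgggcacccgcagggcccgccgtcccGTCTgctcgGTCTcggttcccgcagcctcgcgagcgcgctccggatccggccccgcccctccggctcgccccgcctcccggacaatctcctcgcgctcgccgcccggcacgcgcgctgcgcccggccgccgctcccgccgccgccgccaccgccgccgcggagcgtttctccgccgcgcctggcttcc
Id4: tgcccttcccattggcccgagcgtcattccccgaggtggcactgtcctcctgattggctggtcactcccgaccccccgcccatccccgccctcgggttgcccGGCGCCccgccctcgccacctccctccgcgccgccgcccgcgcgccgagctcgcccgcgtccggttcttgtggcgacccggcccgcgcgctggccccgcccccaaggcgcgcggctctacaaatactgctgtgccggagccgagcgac
Grem1: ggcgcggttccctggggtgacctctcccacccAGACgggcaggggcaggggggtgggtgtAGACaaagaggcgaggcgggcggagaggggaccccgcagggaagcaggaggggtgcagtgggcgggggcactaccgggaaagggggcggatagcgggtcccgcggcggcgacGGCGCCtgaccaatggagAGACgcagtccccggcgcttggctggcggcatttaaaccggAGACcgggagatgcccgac
The Inhba window held GTCT 1 time on either strand, Inhbb 2 times, Acvr2a 3 times and Grem1 4 times, and GGCGCC was found 1 time each in Id4 and Grem1. Among the 33 windows, 9 (27.3%) held GGCGCC, against 9.59% of all 32851 mouse windows of this length, and 27 (81.8%) held GTCT, against 82.9%. The E2F elements TTTGGCGC and TTTCCCGC were in 0 of the 33, against 0.417% and 0.895% of all windows. Both strands were searched, GGCGCC and TTTGGCGC can share letters, and a match describes the letters of a window only. GGCGCC holds only G and C, and the G and C content of these windows was not matched to that of all windows. Some windows of the same gene overlap, as those of Smad5 do.

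To ask which of these genes differ between genotypes before any DNA damage, untreated 3KR MEFs were compared with untreated wild-type MEFs. Sex went with genotype in these samples, so the comparison does not isolate the E2f1 allele. In the quasi-likelihood test of edgeR, with p-values adjusted across the transcriptome and called at 0.05, 31 of 43 genes were called, 14 higher and 17 lower in 3KR. Of all tested genes, 22.1% were called higher and 23.6% lower, so that differences between these samples were common throughout the transcriptome. The median size of the log2 fold change, regardless of sign, was 0.35 for the 43 genes and 0.18 for all tested genes. The 3 samples of each genotype did not overlap for 37 of the 43 genes, against 53.3% of all genes. After NCS, 31 genes differed between genotypes, 13 higher and 18 lower, against 22.9% and 23.6% of all genes, and 31 did not overlap, against 54.4%. Both comparisons called 27 of the genes, against 35.0% of all genes, 12 higher and 15 lower in 3KR in each, against 16.3% and 18.5%. In neither were 8 genes called, against 42.8% of all genes. No sample is shared between these comparisons, but the labels do not say whether the treated and untreated cells came from separate embryos.

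**Figure D2:**
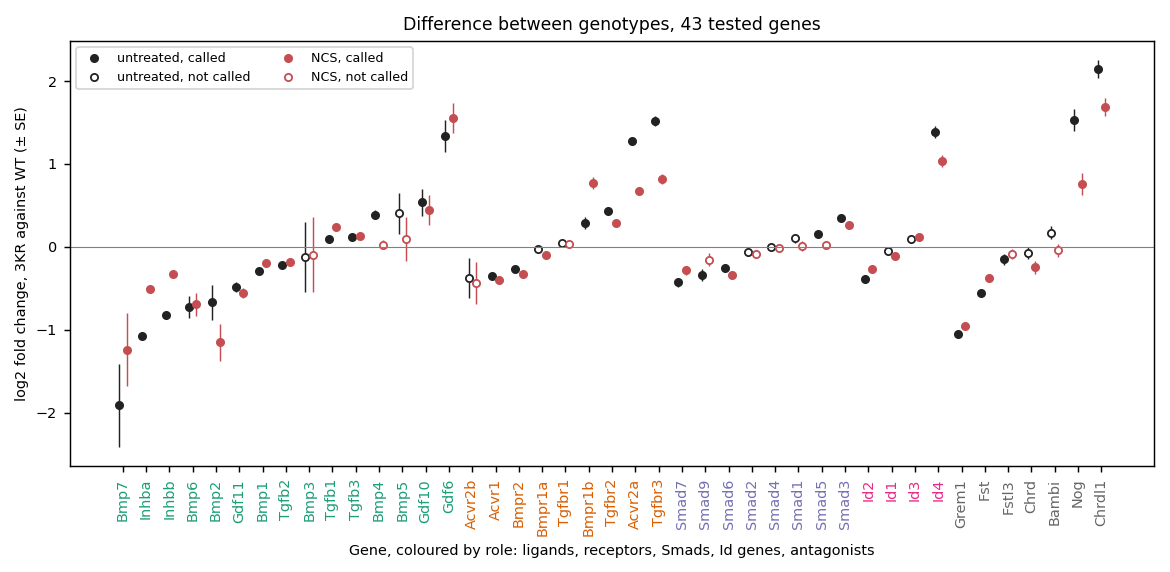
Log2 difference between 3KR and wild-type MEFs (vertical axis, ± SE from the edgeR fit) for the 43 tested genes, untreated in black and after NCS in red, grouped by role and ordered within each role by the untreated value. Filled points were called at an adjusted p of 0.05; Chrdl1 at 2.15 and Bmp7 at -1.91 are the ends of the untreated range.

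Among the ligands, the activin chains were lower in 3KR MEFs. Inhba, which forms activin A, had 15969, 16222 and 17887 normalized counts in untreated wild-type samples and 7975, 7815 and 8101 in untreated 3KR samples. After NCS it had 19870.3, 19435 and 21124 in wild type and 14277, 13999.9 and 14076 in 3KR. Every 3KR sample was thus below every wild-type sample, with a log2 fold change of -1.07 ± 0.038 (SE) untreated and -0.51 ± 0.038 after NCS (edgeR, adjusted p = 7.77e-17 and 7.39e-11). Inhbb, which forms activin B, had 1858, 1773 and 2025 normalized counts in untreated wild-type samples and 1033, 1058 and 1117 in untreated 3KR samples. The NCS-treated samples had 3534, 3619.6 and 3546 in wild type and 2873, 2716 and 2932 in 3KR. The genotypes did not overlap in either treatment, at -0.82 ± 0.050 and -0.33 ± 0.044 on the log2 scale (edgeR, adjusted p = 1.69e-12 and 1.67e-06).

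BMP ligands moved in both directions. Bmp4, a BMP of mesenchyme and limb, had 1123, 1046 and 1174 normalized counts in untreated wild-type samples, 1460.2, 1542 and 1397 in untreated 3KR, 977, 995 and 966 in NCS-treated wild type and 1003, 1048 and 944 in NCS-treated 3KR. It was higher in 3KR without treatment (0.39 ± 0.053, adjusted p = 1.90e-06 with edgeR), while after NCS the samples of the genotypes overlapped (0.026 ± 0.056, adjusted p = 0.74). Exons of Bmp4 overlap those of Gm15217 on the opposite strand over 3.96% of their length. Gdf6, a ligand of joints, was higher in 3KR, with 32.3, 32.5 and 45.5 normalized counts in untreated wild type against 91.7, 97.8 and 89.1 in untreated 3KR. After NCS it had 32.8, 54.4 and 38.8 in wild type and 135, 125 and 114 in 3KR. Neither treatment had overlapping genotypes, and the log2 fold change was 1.34 ± 0.19 untreated and 1.55 ± 0.19 after NCS (edgeR, adjusted p = 4.27e-06 and 2.41e-07).

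Bmp2, an inducer of bone and cartilage, was lower in 3KR. Its normalized counts were 67.9, 68 and 69.3 in untreated wild type, 40.3, 37.4 and 50.9 in untreated 3KR, 60.5, 56.2 and 92.5 in NCS-treated wild type and 33.4, 29.2 and 31 in NCS-treated 3KR. The genotypes were apart in both treatments, at -0.67 ± 0.21 and -1.15 ± 0.22 on the log2 scale (edgeR, adjusted p = 0.0113 and 0.000182), and the untreated call was lost without untreated 3KR replicate 2 (adjusted p = 0.0512). Bmp7, a BMP of kidney and skeleton, was near the lower limit of measurement, with 21.5, 11.2 and 15.5 in untreated wild type, 6.05, 3.12 and 3.64 in untreated 3KR, 9.23, 25.8 and 22.9 in NCS-treated wild type and 8.1, 7.0 and 9.31 in NCS-treated 3KR. The untreated samples did not overlap (-1.91 ± 0.50, adjusted p = 0.00298). The NCS-treated samples did overlap (-1.24 ± 0.44, adjusted p = 0.0238), and that call was lost without any 1 of NCS-treated wild-type replicates 2 or 3 or NCS-treated 3KR replicates 1 or 2 (adjusted p = 0.0653 to 0.132).

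The other ligands had differences below 1 on the log2 scale. Bmp6 was lower in 3KR in both treatments, at 154 ± 15.3 normalized counts in untreated wild type and 93.5 ± 3.04 in untreated 3KR (-0.72 ± 0.13 and, after NCS, -0.69 ± 0.14). Its exons overlap Txndc5 on the opposite strand over 5.74% of their length. Gdf11, a regulator of the axial skeleton, was lower as well, at 812 ± 54.9 against 582 ± 9.55 (-0.49 ± 0.062 and -0.56 ± 0.063). Bmp1, which despite its name is a protease that cleaves procollagen and chordin, was lower at 17543 ± 306 against 14358 ± 76.7 (-0.29 ± 0.031 and -0.19 ± 0.031). The TGF-beta ligands moved little, with Tgfb2 lower at -0.22 ± 0.035 and -0.18 ± 0.035, and Tgfb3 higher at 0.12 ± 0.032 and 0.13 ± 0.032. Tgfb1 was higher at 0.092 ± 0.037 untreated and 0.24 ± 0.037 after NCS, and its untreated call was lost without any 1 of untreated wild-type replicates 1 or 2, untreated 3KR replicates 1 or 2 or NCS-treated 3KR replicates 1, 2 or 3 (adjusted p = 0.0567 to 0.203). Gdf10 was higher at 0.54 ± 0.16 and 0.45 ± 0.18, from 129 ± 37 to 189 ± 20.7 normalized counts untreated. The untreated call of Gdf10 was lost without any 1 of untreated wild-type replicate 2 or untreated 3KR replicate 3 (adjusted p = 0.0564 to 0.068) and its call after NCS without any 1 of NCS-treated wild-type replicates 1 or 2, untreated 3KR replicate 1 or NCS-treated 3KR replicates 1, 2 or 3 (adjusted p = 0.0503 to 0.143). Bmp3 and Bmp5 were not called in either treatment, with log2 fold changes of -0.12 ± 0.42 and 0.40 ± 0.24 untreated.

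Among the receptors, Tgfbr3 and Acvr2a had the largest differences in untreated cells and were higher in 3KR. Tgfbr3 encodes betaglycan, a co-receptor that presents TGF-beta and inhibin. It had 796, 766 and 878 normalized counts in untreated wild-type samples and 2374, 2285 and 2372 in untreated 3KR samples. NCS-treated samples had 1065, 902 and 944 in wild type and 1762, 1609 and 1736 in 3KR. Genotypes were far apart in both treatments, with 1.52 ± 0.059 untreated and 0.81 ± 0.059 after NCS on the log2 scale (edgeR, adjusted p = 3.78e-16 and 6.54e-11). Acvr2a encodes a type II receptor for activins and BMPs. Its normalized counts were 1268, 1191 and 1218 in untreated wild type against 3020.2, 2867 and 3032 in untreated 3KR. After NCS they were 1169.6, 1155 and 1135 against 1860.3, 1864 and 1818. The genotypes did not overlap, at 1.27 ± 0.041 and 0.68 ± 0.043 on the log2 scale (edgeR, adjusted p = 1.40e-17 and 4.77e-12). Exons of Acvr2a overlap those of Orc4 on the opposite strand over 7.84% of their length.

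Bmpr1b, a type I BMP receptor of cartilage condensations, had 418, 375 and 362 normalized counts in untreated wild type, 443, 479 and 496 in untreated 3KR, 370.0, 386 and 413 in NCS-treated wild type and 678, 651 and 662 in NCS-treated 3KR. It was higher in 3KR in both treatments without overlap (0.29 ± 0.073 and 0.77 ± 0.071, edgeR adjusted p = 0.0023 and 3.88e-09). Tgfbr2, the type II receptor of TGF-beta, was higher at 6693 ± 314 against 9086 ± 249 untreated (0.44 ± 0.035 and, after NCS, 0.29 ± 0.035). Acvr1, a type I receptor for BMPs, was lower at 3768 ± 56.1 against 2969 ± 69.2 (-0.35 ± 0.035 and -0.39 ± 0.035), as was the type II receptor Bmpr2 at 3061 ± 199.5 against 2552 ± 83.2 (-0.27 ± 0.046 and -0.33 ± 0.046). Tgfbr1 and Acvr2b were called in neither treatment, at 0.049 ± 0.035 and -0.37 ± 0.24 untreated. Bmpr1a, which had the highest mean RPKM of the receptors in wild type but not in 3KR, was at -0.026 ± 0.032 untreated and was called lower after NCS at -0.10 ± 0.032, a call lost without NCS-treated wild-type replicate 1 (adjusted p = 0.0569).

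Smads, which carry the signal to the nucleus, differed between untreated 3KR and wild-type cells by -0.43 to 0.35 on the log2 scale. Of the 8 genes, 2 were higher and 3 lower in untreated 3KR MEFs, against 22.1% and 23.6% of all tested genes. After NCS 1 was higher and 2 lower, against 22.9% and 23.6% of all tested genes. Smad3, of the activin and TGF-beta branch, was higher at 3201 ± 109 normalized counts in wild type against 4082 ± 68 in 3KR (0.35 ± 0.035 and, after NCS, 0.26 ± 0.034). The inhibitory Smads, which block receptor signaling and are themselves induced by it, were lower. Smad6 was at 1827 ± 71.7 against 1540.4 ± 24.2 (-0.25 ± 0.042 and -0.35 ± 0.042) and Smad7 at 1971 ± 149.9 against 1473 ± 93 (-0.43 ± 0.054 and -0.28 ± 0.053). In the BMP branch, Smad5 was higher (0.15 ± 0.031) and Smad9 lower (-0.34 ± 0.074) in untreated cells and neither was called after NCS, at 0.023 ± 0.032 and -0.15 ± 0.076. Smad1, Smad2 and Smad4 were not called in either treatment, with untreated log2 fold changes of 0.10, -0.068 and 0.00028 in that order.

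The Id genes did not move as a group. Id4 had 283, 329 and 363 normalized counts in untreated wild type and 865, 826 and 856 in untreated 3KR. After NCS it had 359, 384 and 372 in wild type and 736, 777 and 770.3 in 3KR. Id4 was therefore higher in every 3KR sample than in any wild-type sample (1.39 ± 0.073 untreated and 1.03 ± 0.073 after NCS, edgeR adjusted p = 1.16e-13 and 3.38e-11). Id2 had 3096, 2919 and 2685 normalized counts in untreated wild type, 2179, 2202 and 2305 in untreated 3KR, 3349, 3171 and 3043 in NCS-treated wild type and 2656, 2589 and 2683 in NCS-treated 3KR. It was lower in 3KR without overlap in both treatments (-0.39 ± 0.047 and -0.27 ± 0.047, edgeR adjusted p = 3.35e-07 and 4.50e-05).

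Id1 and Id3, whose levels per exon length were the highest of the family, were close between genotypes. Id1 had 3900.4, 3929 and 3910.0 normalized counts in untreated wild type, 3889, 3787 and 3689.8 in untreated 3KR, 5282, 5475 and 5078 in NCS-treated wild type and 4939.8, 4871 and 4884 in NCS-treated 3KR. Untreated it was at -0.053 ± 0.034 (adjusted p = 0.226 with edgeR), and after NCS it was called lower at -0.11 ± 0.034 (adjusted p = 0.0112), a call lost without NCS-treated wild-type replicate 2 (adjusted p = 0.0884). Id3 had 20678, 20822 and 19588 normalized counts in untreated wild type, 21392, 22619.9 and 21303 in untreated 3KR, 22623, 23528 and 20268 in NCS-treated wild type and 23878, 24375 and 23592 in NCS-treated 3KR. The untreated difference was 0.091 ± 0.041 (adjusted p = 0.0783 with edgeR), and the call higher after NCS, at 0.11 ± 0.041 (adjusted p = 0.0284), was lost without any 1 of NCS-treated wild-type replicate 3 or NCS-treated 3KR replicates 1 or 2 (adjusted p = 0.0644 to 0.148). Id3 was called in untreated cells without NCS-treated wild-type replicate 3, at 0.10 (adjusted p = 0.00684 with edgeR), and without wild-type replicate 3 in both treatments, at 0.070 (adjusted p = 0.00155).

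**Figure D3:**
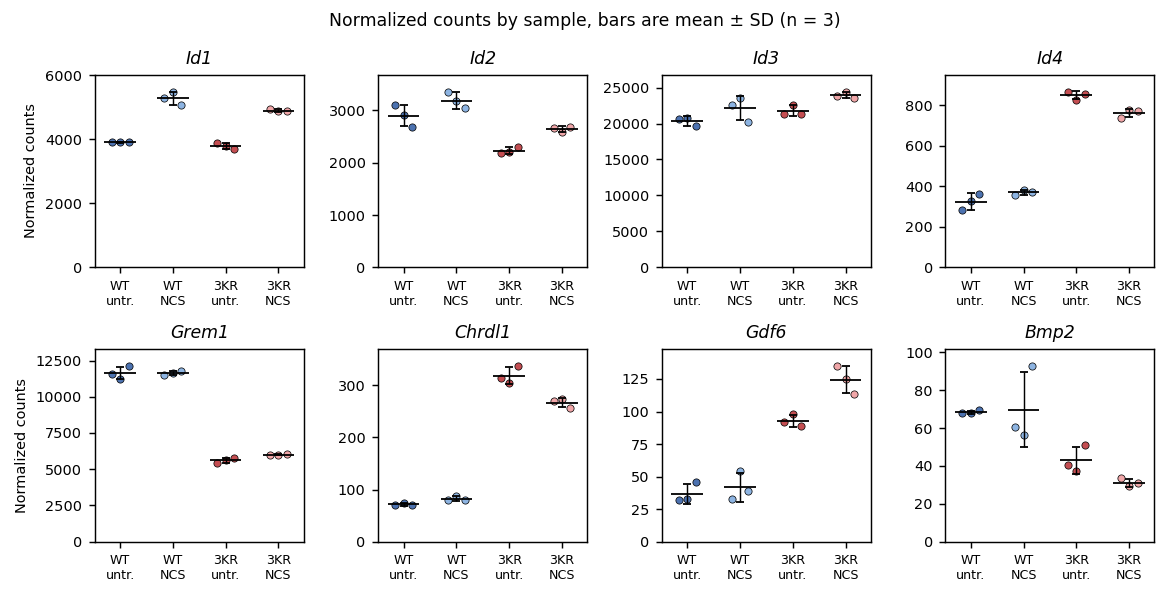
Normalized counts (vertical axes from 0) of the 4 Id genes, of the antagonists Grem1 and Chrdl1 and of the ligands Gdf6 and Bmp2 in each of the 12 samples, with bars for the mean ± SD of 3. The 3KR samples of Id4, Chrdl1 and Gdf6 lie above all wild-type samples, those of Grem1 and Bmp2 below, and Id1 is higher in every NCS-treated sample than in every untreated one and, within each treatment, slightly lower in 3KR.

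Antagonists of BMPs also moved in both directions. Grem1 encodes gremlin 1, which binds Bmp2 and Bmp4, and was the antagonist of highest level. It had 11549.6, 11238 and 12096 normalized counts in untreated wild type and 5409.6, 5609.7 and 5807 in untreated 3KR. After NCS it had 11522, 11628 and 11763 in wild type and 5984, 5968 and 6061 in 3KR. The 3KR samples thus held 0.48 times the wild-type level untreated and 0.516 times after NCS (-1.06 ± 0.034 and -0.95 ± 0.034 on the log2 scale, edgeR adjusted p = 1.14e-17 and 8.72e-17). Nog encodes noggin, which binds BMPs with high affinity, and had 67.9, 71 and 70.4 normalized counts in untreated wild type against 183, 211 and 213 in untreated 3KR. After NCS it had 78.9, 105 and 104 against 177, 155 and 155. The genotypes did not overlap in either treatment (1.53 ± 0.13 and 0.75 ± 0.13, edgeR adjusted p = 1.54e-09 and 5.72e-05).

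Chrdl1, which encodes the chordin-like BMP antagonist ventroptin, had 69.6, 75.1 and 70.4 normalized counts in untreated wild type and 313, 305 and 336 in untreated 3KR. After NCS it had 80, 87.6 and 79.6 in wild type and 270.4, 273 and 257 in 3KR. Its log2 fold change was 2.15 ± 0.11 untreated and 1.69 ± 0.11 after NCS, with no overlap (edgeR, adjusted p = 5.03e-14 and 5.83e-12). Chrdl1 is on the X chromosome, and the samples of the genotypes also differed in Xist. Per exon length, the level of Grem1 was above those of Nog and Chrdl1 in untreated 3KR MEFs, at 36.1 ± 1.3 against 3.19 ± 0.258 and 1.26 ± 0.0676 RPKM.

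Fst encodes follistatin, which binds activins. It had 1922, 2069 and 1725 normalized counts in untreated wild type, 1301, 1316 and 1281 in untreated 3KR, 2745, 2664 and 2702 in NCS-treated wild type and 2160.0, 2003 and 2094 in NCS-treated 3KR. Like the activin chains it was lower in 3KR with no overlap (-0.56 ± 0.052 untreated and -0.37 ± 0.049 after NCS, edgeR adjusted p = 3.89e-09 and 1.13e-06). Its relative Fstl3 was called lower untreated at -0.15 ± 0.062 and not after NCS at -0.086 ± 0.062. That call was lost without any 1 of untreated wild-type replicate 1, NCS-treated wild-type replicates 1, 2 or 3, untreated 3KR replicates 1, 2 or 3 or NCS-treated 3KR replicate 3 (adjusted p = 0.0535 to 0.287), and 47.3% of the exon length of Fstl3 overlaps Prss57 on the opposite strand. Chrd, which encodes chordin, was at -0.071 ± 0.074 untreated and was called lower after NCS at -0.25 ± 0.076, a call lost without NCS-treated wild-type replicate 2 (adjusted p = 0.0714). Bambi, a decoy receptor without a kinase, was called in neither treatment (0.17 ± 0.077 and -0.043 ± 0.077), and without any 1 of untreated wild-type replicate 3 or untreated 3KR replicate 2 (adjusted p = 0.013 to 0.0473) it was called higher in untreated 3KR.

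To ask which genes change with NCS, NCS-treated cells were compared with untreated cells of the same genotype. The study describes RNA taken before and 3 h after treatment, and no mock-treated group is among the 12 samples. Effects of the drug and of 3 h in culture therefore cannot be told apart. In wild-type MEFs 18 of 43 genes were called, 16 higher and 2 lower after NCS, against 14.3% and 12.4% of all tested genes. In 3KR MEFs 21 were called, 15 higher and 6 lower, against 15.8% and 15.0% of all genes. The median log2 fold change over the 43 genes was 0.11 in wild type and 0.029 in 3KR, against 0.0054 and -0.00078 over all genes. Both genotypes called 13 genes, 12 in the same direction and 1, Tgfbr3, in opposite directions, against 17.4% of all genes called in both and 17.0% in the same direction. In neither genotype were 17 called, against 59.9% of all genes. With genotype and replicate number as a block, 21 genes were called in wild type, adding Bmpr1a, Id4 and Bambi, and 24 in 3KR, adding Gdf6, Bmpr2 and Id4. This block raised the share called over all genes to 34.2% in wild type and 37.8% in 3KR, where same-numbered samples showed no pairing. Untreated samples enter these comparisons and those between genotypes alike, so a gene's values in both are not independent of each other.

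**Figure D4:**
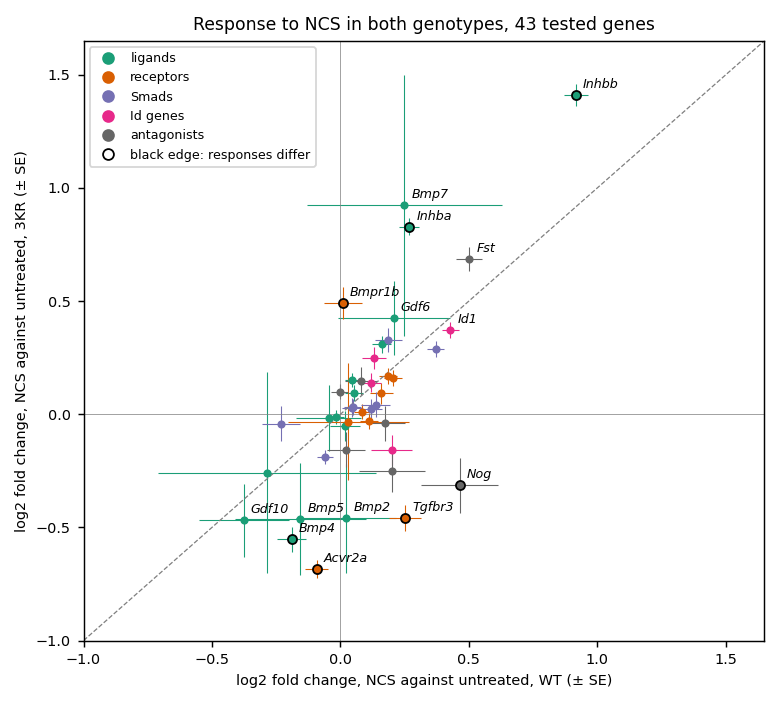
Log2 fold change of NCS against untreated cells in wild-type MEFs (horizontal axis) and in 3KR MEFs (vertical axis), ± SE from the edgeR fit, for the 43 tested genes coloured by role, with the line of equal responses dashed. Points edged in black are the 7 genes called for a difference of responses; Inhbb lies at 0.92 and 1.41, and Tgfbr3 and Nog lie above 0 in wild type and below 0 in 3KR.

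The activin chains and follistatin rose in both genotypes. Inhbb rose from 1886 ± 128 to 3567 ± 46.1 normalized counts in wild type (mean ± SD, n = 3) and from 1069 ± 43 to 2840.4 ± 112 in 3KR, or, in the fit, 1.89 and 2.66 times (0.92 ± 0.045 and 1.41 ± 0.049, edgeR adjusted p = 4.02e-13 and 6.42e-16). Inhba rose from 16693 ± 1042 to 20143 ± 877 in wild type and from 7963 ± 143 to 14117 ± 143 in 3KR (0.27 ± 0.037 and 0.83 ± 0.038, edgeR adjusted p = 8.44e-06 and 9.62e-14). Fst rose from 1905 ± 172 to 2704 ± 40.4 and from 1299 ± 17.3 to 2086 ± 78.7 (0.50 ± 0.049 and 0.69 ± 0.052, edgeR adjusted p = 4.48e-08 and 4.69e-10). For all 3 genes, the treated samples lay above the untreated samples of the same genotype without overlap.

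Bmp4 fell in both genotypes, by 0.19 (log2) in wild type (SE 0.055, adjusted p = 0.0124 with edgeR) and by 0.55 in 3KR (SE 0.055, adjusted p = 3.54e-08). The wild-type call was lost without wild-type replicate 3 in both treatments, at -0.14 (adjusted p = 0.0556). Of the other ligands, Tgfb1 rose in both genotypes (0.16 ± 0.037 and 0.31 ± 0.037). In 3KR alone, calls were made higher for Bmp1 (0.15 ± 0.031, against 0.047 ± 0.031 in wild type) and Tgfb2 (0.095 ± 0.036, against 0.053 ± 0.035) and lower for Gdf10 (-0.47 ± 0.16, against -0.38 ± 0.17), and the difference of responses was not called for any of these 3 genes. The call of Tgfb2 was lost without any 1 of untreated wild-type replicates 1 or 2, NCS-treated wild-type replicate 1, untreated 3KR replicates 1, 2 or 3 or NCS-treated 3KR replicates 1, 2 or 3 (adjusted p = 0.0549 to 0.18). That of Gdf10 was lost without any 1 of untreated 3KR replicates 1 or 3 or NCS-treated 3KR replicates 1, 2 or 3 (adjusted p = 0.0514 to 0.149), and without any 1 of untreated wild-type replicate 2 or NCS-treated wild-type replicate 3 (adjusted p = 0.0107 to 0.0298) Gdf10 was called lower in wild type. Bmp2, Bmp3, Bmp5, Bmp6, Bmp7, Gdf6, Gdf11 and Tgfb3 were called for NCS in neither genotype. Gdf6 was at 0.43 ± 0.17 in 3KR (adjusted p = 0.0544 with edgeR) and was called higher there without any 1 of untreated wild-type replicate 3 or NCS-treated wild-type replicates 1 or 2 (adjusted p = 0.039 to 0.0467).

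Of the Id genes, Id1, Id2 and Id3 rose with NCS in both genotypes. Id1 had the largest log2 fold change of the 4, from 3913 ± 14.6 to 5278 ± 199 normalized counts in wild type and from 3788 ± 99.6 to 4898 ± 36.4 in 3KR, with no overlap (0.43 ± 0.034 and 0.37 ± 0.034, edgeR adjusted p = 1.23e-09 and 1.08e-08). Id2 was at 0.13 ± 0.046 in wild type, where the samples overlapped, and 0.25 ± 0.048 in 3KR. Id3 was at 0.12 ± 0.041 in wild type, where the samples overlapped as well, and 0.14 ± 0.041 in 3KR. The wild-type call of Id2 was lost without any 1 of untreated wild-type replicates 2 or 3, NCS-treated wild-type replicates 1 or 2 or NCS-treated 3KR replicates 1 or 3 (adjusted p = 0.050 to 0.208). The wild-type call of Id3 was lost without any 1 of untreated wild-type replicates 1 or 3, NCS-treated wild-type replicates 1 or 2, untreated 3KR replicate 1 or NCS-treated 3KR replicates 1, 2 or 3 (adjusted p = 0.0503 to 0.262), and its 3KR call without any 1 of untreated 3KR replicates 1 or 3 or NCS-treated 3KR replicate 2 (adjusted p = 0.057 to 0.0644). Id4 was called in neither genotype, at 0.20 ± 0.080 in wild type (adjusted p = 0.0691 with edgeR) and -0.16 ± 0.066 in 3KR (adjusted p = 0.0792). With the block by genotype and replicate number, Id4 was called in both, at adjusted p = 0.0486 and 0.0473. Without untreated wild-type replicate 3 (adjusted p = 0.00825) it was called higher in wild type, and without any 1 of untreated wild-type replicates 1 or 3 (adjusted p = 0.0427 to 0.0468) it was called lower in 3KR.

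Of the receptors, Tgfbr1 (0.19 ± 0.035 in wild type and 0.17 ± 0.035 in 3KR) and Acvr1 (0.21 ± 0.035 and 0.16 ± 0.036) rose in both genotypes. Bmpr2 and Tgfbr2 were called higher in wild type at 0.16 ± 0.045 and 0.11 ± 0.036, against 0.093 ± 0.046 and -0.032 ± 0.035 in 3KR. The Bmpr2 call was lost without any 1 of untreated wild-type replicates 1 or 2 or NCS-treated wild-type replicate 3 (adjusted p = 0.0569 to 0.0688) and that of Tgfbr2 without any 1 of untreated wild-type replicates 1 or 2 or NCS-treated wild-type replicate 3 (adjusted p = 0.0933 to 0.117). Bmpr1a was at 0.085 ± 0.032 in wild type and 0.011 ± 0.032 in 3KR, Acvr2b at 0.031 ± 0.24 and -0.032 ± 0.26, and neither was called. Bmpr1a was near the threshold in wild type (adjusted p = 0.0522 with edgeR). It was called higher there with the block by genotype and replicate number (adjusted p = 0.0122) or without untreated wild-type replicate 3 (adjusted p = 0.00306). The same call was made with DESeq2 size factors, with the DESeq2 Wald test and with replicate number as a block. Leaving out wild-type replicate 3 in both treatments gave it too.

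Of the Smads, Smad3 (0.37 ± 0.035 and 0.29 ± 0.034) and Smad7 (0.19 ± 0.052 and 0.33 ± 0.054) rose in both genotypes, and the wild-type call of Smad7 was lost without any 1 of untreated wild-type replicates 1 or 2 (adjusted p = 0.0537 to 0.0632). Smad6 was called higher in wild type at 0.12 ± 0.041, against 0.025 ± 0.043 in 3KR, a call lost without any 1 of untreated wild-type replicates 1 or 3 or NCS-treated wild-type replicates 2 or 3 (adjusted p = 0.0517 to 0.156). Smad9 was called lower in wild type at -0.23 ± 0.073, against -0.042 ± 0.077 in 3KR, a call lost without any 1 of untreated wild-type replicate 2 or NCS-treated wild-type replicates 1 or 2 (adjusted p = 0.0771 to 0.101). Smad5 fell in 3KR by 0.19 on the log2 scale (SE 0.032), against -0.061 ± 0.032 in wild type. Smad1, Smad2 and Smad4 were called in neither genotype, with log2 fold changes of 0.14, 0.045 and 0.048 in wild type. Smad1 was called higher in wild type without NCS-treated wild-type replicate 1 (adjusted p = 0.0139), and Smad4 without untreated wild-type replicate 3 (adjusted p = 0.0427).

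Of the antagonists other than Fst, Grem1 was called higher in 3KR at 0.10 ± 0.034 and was at -0.0027 ± 0.033 in wild type, and Chrdl1 was called lower in 3KR at -0.25 ± 0.090 and was at 0.20 ± 0.13 in wild type. The call of Grem1 was lost without any 1 of untreated 3KR replicates 1 or 2 or NCS-treated 3KR replicates 1, 2 or 3 (adjusted p = 0.0591 to 0.171), and that of Chrdl1 without any 1 of untreated 3KR replicates 1 or 3 or NCS-treated 3KR replicates 1, 2 or 3 (adjusted p = 0.064 to 0.153). Chrd, Fstl3 and Bambi were called in neither genotype, at 0.022, 0.080 and 0.17 on the log2 scale in wild type.

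Whether the responses to NCS differed between genotypes was tested directly, as the log2 fold change in 3KR minus that in wild type. Of 43 genes 7 were called, 3 with a higher and 4 with a lower response in 3KR, against 1.86% and 1.87% of all tested genes. With genotype and replicate number as a block 13 were called, 6 higher and 7 lower, against 4.90% and 4.10% of all genes. Without wild-type replicate 3 in both treatments 14 were called, 6 higher and 8 lower, against 6.01% and 5.82% of all genes. Both held the same 7. Activin chains had the larger log2 response in 3KR, where their untreated levels were lower. The difference was 0.56 ± 0.053 (SE) for Inhba and 0.49 ± 0.067 for Inhbb (edgeR, adjusted p = 9.62e-07 and 6.59e-05). In the fit, the 3KR level of Inhba went from 0.475 to 0.701 times the wild-type level and that of Inhbb from 0.565 to 0.797 times, so the genotypes were closer after NCS than before. Bmpr1b was 385 ± 28.9 before and 389.8 ± 21.7 after NCS in wild type, where samples overlapped, and rose from 473 ± 26.7 to 664 ± 13.8 in 3KR. Its difference of responses was 0.48 ± 0.10 (edgeR, adjusted p = 0.00716), and its genotypes were farther apart after NCS.

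The 4 genes with a lower response in 3KR were Bmp4, Tgfbr3, Acvr2a and Nog. All 4 were higher in untreated 3KR than in untreated wild type and closer after NCS. Acvr2a fell in 3KR from 2973 ± 92 to 1847 ± 25.9 normalized counts, against 1226 ± 38.8 and 1153 ± 17.2 in wild type, a difference of responses of -0.59 ± 0.060 (edgeR, adjusted p = 1.71e-06). The wild-type response of Acvr2a was not called (-0.093 ± 0.044, adjusted p = 0.128), although its treated samples all lay below the untreated ones. Tgfbr3 rose in wild type (0.25 ± 0.063, adjusted p = 0.00429 with edgeR) and fell in 3KR (-0.46 ± 0.055, adjusted p = 8.12e-07), a difference of -0.71 ± 0.084 (adjusted p = 1.31e-05). For Bmp4 the difference was -0.36 ± 0.078 (edgeR, adjusted p = 0.00803). For Nog the response was 0.46 ± 0.15 in wild type (adjusted p = 0.0225 with edgeR) and -0.31 ± 0.12 in 3KR (adjusted p = 0.0534), a difference of -0.78 ± 0.19 (adjusted p = 0.0218). That difference was no longer called without any 1 of untreated wild-type replicate 1, NCS-treated wild-type replicate 2, untreated 3KR replicates 2 or 3 or NCS-treated 3KR replicates 2 or 3 (adjusted p = 0.0515 to 0.0731). The wild-type rise of Nog was lost without any 1 of untreated wild-type replicate 1 or NCS-treated wild-type replicates 2 or 3 (adjusted p = 0.0702 to 0.103), and the 3KR response was called lower without any 1 of untreated wild-type replicate 3, NCS-treated wild-type replicates 1 or 3, untreated 3KR replicate 1 or NCS-treated 3KR replicate 1 (adjusted p = 0.0399 to 0.0476).

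**Figure D5:**
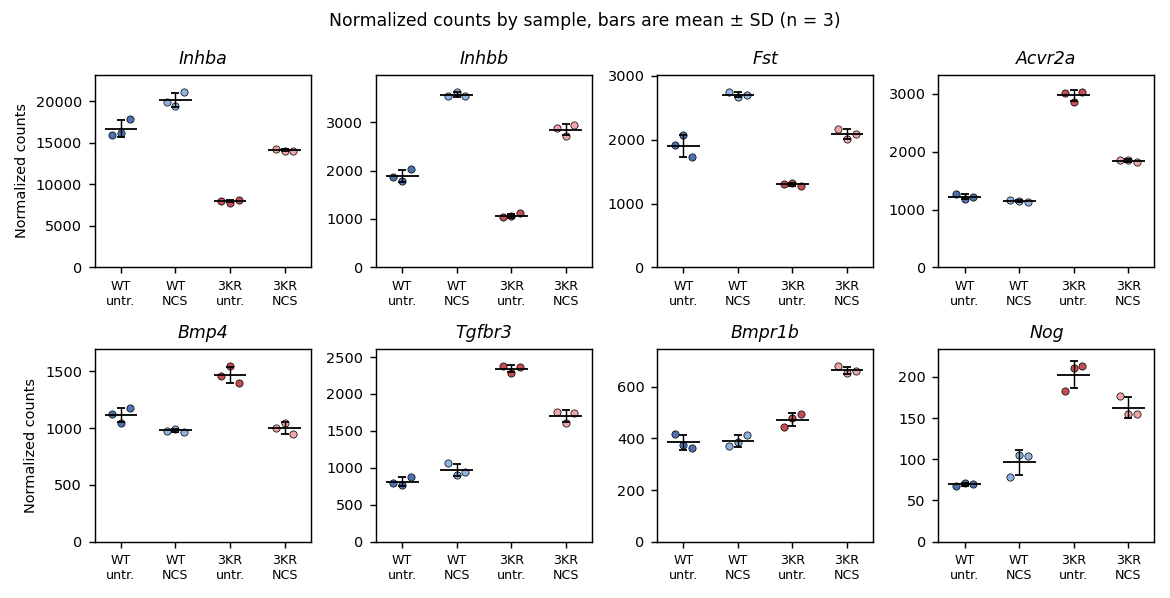
Normalized counts (vertical axes from 0) in each of the 12 samples for Inhba, Inhbb, Fst and Acvr2a, genes of the activin side, and for Bmp4, Tgfbr3, Bmpr1b and Nog, with bars for the mean ± SD of 3. Inhba, Inhbb and Fst are lower in 3KR and rise with NCS in both genotypes, while Acvr2a and Tgfbr3 start higher in 3KR and fall there, Acvr2a from 2973 ± 92 to 1847 ± 25.9.

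The other 36 tested genes were not called for a difference of responses. With the block by genotype and replicate number, calls were added for Bmp1 (0.11, adjusted p = 0.0239 with edgeR), Tgfb1 (0.15, adjusted p = 0.0125) and Fst (0.18, adjusted p = 0.0495) on the higher side. On the lower side they were added for Tgfbr2 (-0.14, adjusted p = 0.00815 with edgeR), Smad5 (-0.13, adjusted p = 0.0291) and Id4 (-0.35, adjusted p = 0.0201). Leaving out wild-type replicate 3 in both treatments added the same 6 and Bmpr1a (-0.11, adjusted p = 0.0192 with edgeR). Leaving out untreated wild-type replicate 3 alone added Fst (adjusted p = 0.0086 with edgeR), Id4 (0.00573) and Tgfbr2 (0.00487). Leaving out NCS-treated wild-type replicate 3 alone added Bmp1 (adjusted p = 0.0226 with edgeR) and Tgfb1 (0.0393). Among the 4 Id genes the differences of responses were -0.055, 0.12, 0.022 and -0.35 for Id1 to Id4 without the block, and among the 8 Smads they ran from -0.13 to 0.19.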

How the data were processed

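RNA-seq libraries of 12 samples were sequenced by the authors, who deposited raw counts of reads per Ensembl gene, 1 file per sample, neither normalized nor filtered. The submitters' processing notes name TopHat, HTSeq, DESeq and the build mm9, without roles or versions, and the annotation release and the strand setting of the counting were not given in the sources used here. Genes that overlap on opposite strands may therefore hold each other's reads. Beside the overlaps named above, exons of Bmpr1a overlap Gm17110 on the opposite strand over 4.57% of their length. Those of Chrd overlap Thpo over 3.82% and those of Gdf5 overlap Gm15557 over 40.3%, also on the opposite strand. Symbols were given for 32919 of 37991 identifiers by GENCODE M21, and 0 other columns of values were present. The 44 genes, the other lists and the tests were chosen with earlier results of these data known. Values in every sample are given for the Id genes, for genes called between genotypes in both treatments with a log2 fold change of at least 1 in size in either, for genes called for NCS in both genotypes with at least 0.5 in either, and for genes called for a difference of responses.

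After filterByExpr removed low genes, the rest were tested by the two-sided quasi-likelihood F test of edgeR 4.0.16 (R 4.3.3) after TMM normalization, with each group as 1 coefficient of a fit to all 12 samples and Benjamini-Hochberg adjustment over 15327 genes at 0.05. Normalized counts are counts divided by DESeq2 1.42.0 size factors. A level of 3 counts, taken as the floor, was 0.0663 to 0.0904 CPM, which covers counting error only. The edgeR step was tested on simulated counts. The study describes the replicates of its graphs as independent experiments. The labels do not say whether the samples of a group came from separate embryos or cultures, and where they did not, p-values measure only the spread between these samples. Deviations from the group means of same-numbered untreated and NCS-treated samples correlated at 0.144, 0.139 and 0.318 over 11810 genes in wild type. In 3KR they correlated at -0.0979, -0.0877 and -0.0206. The wild-type values were taken as pairing and the 3KR values were not. Deviations of a gene cancel out within a group. A wild-type replicate 3 that stood apart in both treatments can therefore raise all 3 wild-type values. They do not show whether the other wild-type replicates were paired. The pairing was read from the data and not from a label. Alternatives were size factors of DESeq2, its Wald test, no filter, a minimum of 10 counts in all samples, fits to the compared samples alone, replicate number, or genotype and number together, as a block, each sample left out, and wild-type replicate 3 left out of both treatments.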

Additional observations from a re-analysis of the deposited data

Results flagged for a closer look

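The log2 response to NCS differed between genotypes, by the edgeR test of the difference itself, for 7 of the 43 tested genes. The difference, 3KR minus wild type, was 0.56 for Inhba, 0.49 for Inhbb and 0.48 for Bmpr1b. It was -0.36 for Bmp4, -0.59 for Acvr2a, -0.71 for Tgfbr3 and -0.78 for Nog. With 3 samples in each group, no test for a single outlying value of a gene was run.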

How the results depend on the processing

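No call between groups changed direction under any alternative. Of 4148 values of single genes recomputed, 3955 kept direction and side of the threshold, 125 lost the call and 68 gained it, and the cause was not tested. For the difference of responses, genotype and number together as a replicate block gave 13 calls and leaving out wild-type replicate 3 in both treatments gave 14, in place of 7, and over all genes 1379 and 1842 in place of 285 higher and 287 lower. The replicate number as a replicate block, paired across all groups, gave 31 and 31 calls between genotypes, against 7173 and 7292 over all genes. For NCS in wild type and 3KR it gave 19 and 21, against 4297 and 4949, and for the difference 8, against 707. No correlation between genotypes exceeded 0.0888. Leaving out 1 sample gave 29 to 32 and 27 to 31 calls between genotypes, against 6266 to 7339 and 6275 to 7604 over all genes. For NCS it gave 12 to 18 and 16 to 24, against 3292 to 4604 and 3788 to 5367. For the difference it gave 6 to 10, against 345 to 1159. With only the samples compared, 12 and 26 genes were called for NCS in wild type and 3KR, against 3088 and 6175 over all genes. No such fit was run for the difference of responses, which needs all 4 groups. Scaling by library total or by TMM moved a group mean by at most 2.33% and 0.250%. Depth limits Gdf5, Bmp3 and Bmp7, whose counts per sample were below 30.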

Other observations

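Other genes of the pathway, taken from lists that were chosen with earlier results of these data known, differed between untreated genotypes as follows. The genes named from each list are among those with its lowest p-values in that comparison, and so are not typical of it. Over all tested genes, 22.1% were called higher and 23.6% lower there, the shares to set beside each count below. Of 18 further ligands 7 passed the filter, 1 was called higher and 1 lower, with a median log2 fold change of -0.24 against -0.00036 over all tested genes. The called genes were Inha, the inhibin chain (0.29), and Bmp8b (-2.31). Of 6 tested further receptors and co-receptors 2 were higher and 4 lower, median -0.33. Eng, which encodes the co-receptor endoglin, had 1552 ± 24.6 normalized counts in wild type and 1044 ± 30.3 in 3KR (-0.58, adjusted p = 1.86e-10 with edgeR). It rose after NCS in both genotypes, by 0.35 and 0.30 on the log2 scale, as did the type I receptor Acvrl1, at 0.39 and 0.39.

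Of 10 tested further antagonists and modulators, 3 were higher and 5 lower, median -0.074. Bmper and Crim1, secreted and membrane proteins that bind BMPs, were lower at -0.99 and -1.01. Of 10 tested genes of latent TGF-beta binding and activation 2 were higher and 6 lower (median -0.15), with Ltbp2 at 0.44, Dcn at 0.75 and Ltbp1 at -0.49. Of 13 tested Smad regulators 2 were higher and 4 lower (median -0.073), against 22.1% and 23.6% of all tested genes. The ubiquitin ligases Smurf1 and Smurf2 were lower at -0.35 and -0.28 and rose after NCS in both genotypes (0.42 and 0.39 in wild type). Of 19 response genes, which include Smad7 and 3 genes of the other pathway lists, 7 were higher and 9 lower (median -0.25). The response genes Col1a1 and Fn1, and Dcn named above, are also among the fibroblast markers. Ccn2, a matrix-associated target of TGF-beta, fell from 67642 ± 3112 to 33911 ± 309.8 normalized counts in 3KR against wild type (-1.0). Msx1, a homeobox target of BMPs, was at 205 ± 17.1 against 883 ± 34.4 (2.10), and Hey1 at 301 ± 15 against 828 ± 12.4 (1.45). The fibroblast, macrophage, Schwann cell, chondrocyte and muscle markers moved with genotype in the same samples, and their part in these values was not tested.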
